A study of Homo sapiens with 22 samples.

Results

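The regions described here carried H3R2me2a, asymmetric dimethylation of arginine 2 on histone H3, next to 4 genes of the cell cycle entry machinery: the D-type cyclin genes CCND1 and CCND2 and the inhibitor genes CDKN1B and CDKN2C. A region belonged to a gene when the authors named that gene's transcript as the next one in their promoter or enhancer list. By this rule there were 16 of 8819 regions: 7 named CCND2, 4 named CCND1, 3 named CDKN2C and 2 named CDKN1B.

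The regions came from chromatin immunoprecipitation followed by sequencing in NT2/D1, a human embryonal carcinoma line that is pluripotent and differentiates in retinoic acid. The study covered 22 samples, and the lists used here came from 2 of them, both H3R2me2a libraries of cells carried through CRISPR/Cas9 as a control, with PRMT6 intact. One was from cells without all-trans retinoic acid (ATRA) and the other from cells given 1 µM ATRA for 3 days. The antibody was a rat monoclonal made by the submitters. The sources used here do not say whether the control cells were a clone or a pool, and the PRMT6-deleted, IgG and other histone mark samples were not analysed here. With 1 library per condition, intervals below cover counting error only and no value has a replicate check.

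The authors sorted regions into cluster I (202), cluster II (2098) and cluster III (6519), and separately into a promoter and an enhancer list. The files of clusters I and II are attached to the untreated sample and that of cluster III to the ATRA sample. Each cluster II region has 2 overlapping intervals, and the library of neither is named. Clusters I and III carry the number of tags that MACS reported (MACS tags). Every region carries a second whole-number column, tagcount, whose library is not named. In cluster I it exceeded the MACS tags of the untreated library by 0 to 8 tags (median 3). Sequencing depth is unknown, so tags were ranked within a cluster and compared between columns of the same region. Coordinates of regions are on hg19.

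D-type cyclins bind and activate the kinases CDK4 and CDK6, which phosphorylate the retinoblastoma protein and so release E2F transcription factors for S phase. INK4 proteins such as p18, the product of CDKN2C, bind CDK4 and CDK6 and keep cyclin D away. CIP/KIP proteins such as p27, the product of CDKN1B, bind cyclin and kinase together and block CDK2 complexes in particular. PRMT6 places H3R2me2a, a mark known to hinder trimethylation of the neighbouring lysine at promoters and to occur also at enhancers.

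The RefSeq promoter table on GRCh38.p14 matched 2 of the 4 genes, CDKN1B with 1 start and CDKN2C with 3. The 250 bases before a start are printed for the transcripts that the authors named at these regions, since for each transcript the nearest region was classed as a start window. The printed starts are on GRCh38.p14 and the authors' regions on hg19. Whether the starts of both builds coincide is not shown here. The sequences run 5′ to 3′ on the plus strand. Capitals mark the GC box GGGCGG, a motif bound by SP factors, and the E-box CACGTG.
CDKN1B, transcript ENST00000228872, chr12:12717118-12717367: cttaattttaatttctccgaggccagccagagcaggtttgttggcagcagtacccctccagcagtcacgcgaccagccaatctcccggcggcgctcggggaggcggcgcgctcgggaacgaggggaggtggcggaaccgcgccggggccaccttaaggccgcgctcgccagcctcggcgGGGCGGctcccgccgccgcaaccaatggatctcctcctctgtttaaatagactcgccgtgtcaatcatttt
CDKN2C, transcript ENST00000371761, chr1:50969995-50970244: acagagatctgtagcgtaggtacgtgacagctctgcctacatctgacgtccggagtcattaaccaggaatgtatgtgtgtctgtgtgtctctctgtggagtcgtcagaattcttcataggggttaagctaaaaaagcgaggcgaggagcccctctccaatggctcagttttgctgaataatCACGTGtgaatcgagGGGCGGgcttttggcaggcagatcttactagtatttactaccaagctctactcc

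Both strands were searched for these motifs and for the E2F motifs TTTCGCG and TTTGGCG, the retinoic acid receptor hexamer AGGTCA and the TATA box TATAAA. In CDKN1B the GC box lay 71 to 66 bases before the start. In CDKN2C it lay 54 to 49 bases before the start, and the E-box 69 to 64 bases before it. Of 34943 promoter windows of the same length, 42.5% held the GC box and 6.32% the E-box. The other motifs were in neither window, and were in 1.09% (TTTCGCG), 1.59% (TTTGGCG), 12.1% (AGGTCA) and 10.8% (TATAAA) of all windows. The CDKN1B window was 64.4% G or C and the CDKN2C window 48.8%, beside a median of 58% over all windows. No motif overlapped another. Sequence under the hg19 regions themselves was not analysed here.

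CCND2 held the broadest H3R2me2a region in all the lists. Its 7 regions were all in cluster III, 2 in the promoter list and 5 in the enhancer list, and 0.448% of the 6697 genes named in the lists had at least 7 regions. The region at the start of the gene (chromosome 12, 4378428 to 4383643) was 5216 bp wide, the widest of the 8819. It had 654 MACS tags (95% Poisson interval 605 to 706), which ranked number 3 of 6519 in cluster III, and a tagcount of 418 (379 to 460), the highest in that cluster. Per kb of width it had 125 MACS tags, more than 84.9% of cluster III regions, and its tagcount per kb exceeded 92.0%. Its rank by tags thus rested partly on its width.

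The position of this region relative to the CCND2 start was bounded from the authors' own distances. If a distance was measured from any point inside its region, the 4 regions named with transcript ENST00000261254 placed its start between 4382778 and 4383102. The 5216 bp region spanned that interval and reached mostly upstream, with its summit 3443 bp from its left edge. The same bounds were compatible for 822 of 822 transcripts with at least 2 regions.

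**Figure D1:**
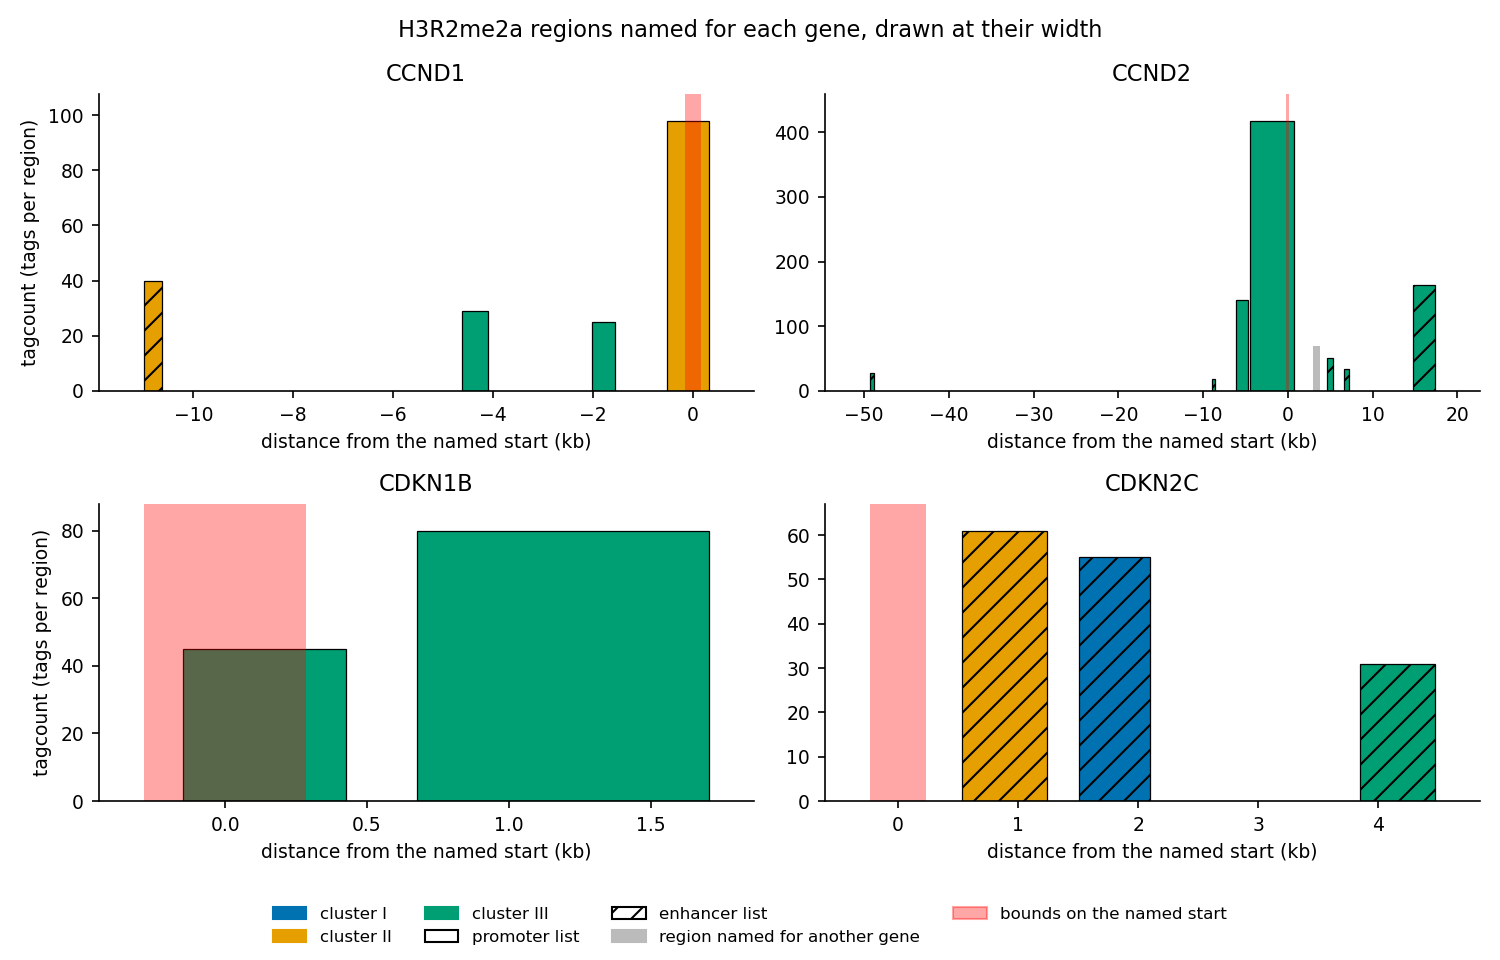
Each panel shows the regions of 1 gene, drawn at their width, with distance from the named start in kb on the horizontal axis and tagcount in tags per region on the vertical axis, which differs between panels. Colours give the cluster, hatching the enhancer list, grey a region named for another gene, and the red band the bounds on the start. The 5216 bp CCND2 region spans its start at a tagcount of 418, the strongest CCND1 region (98) spans its own, and all 3 CDKN2C regions lie past theirs.

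A second strong CCND2 region lay upstream, separated by only 190 bp from the start region (4376795 to 4378237). It was 1443 bp wide with 170 MACS tags (145 to 198) and a tagcount of 141, more tags than 98.0% of cluster III. The authors classed its position as intron, at -5581 bp from the CCND2 start, and still put it in the promoter list, where 1.72% of regions were intronic. Farther upstream were 2 weak enhancer-list regions. One was an intronic region at -8758 bp (4374020 to 4374344) with 34 MACS tags (24 to 48) and a tagcount of 19. The other was an intergenic region at -49045 bp (4333617 to 4334064) with 47 MACS tags (35 to 63) and a tagcount of 28. The first lay below the cluster III median of 50 with its whole interval, and the interval of the second spanned it.

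Past the start were 3 more CCND2 regions, all in the enhancer list. At a start of transcript ENST00000536795 (4387603 to 4388294) there were 102 MACS tags (83 to 124) and a tagcount of 51. At 1883 bp from a start of ENST00000541542 (4389602 to 4390183, intron) there were 71 MACS tags (55 to 90) and a tagcount of 34. Both transcripts are annotated as retained introns in GENCODE 44. The first region was classed as a start window, a position that 15.6% of the enhancer list shared. The third, an exonic region 10814 bp from the ENST00000541542 start (4397753 to 4400257), was 2505 bp wide, rank 14 of all regions. It had 254 MACS tags (224 to 287) and a tagcount of 164, more MACS tags than 99.3% of cluster III. By MACS tags per kb of width, however, the exonic region exceeded 58.1% of cluster III and the region at -5581 bp 79.2%. By tagcount per kb they exceeded 78.3% and 97.9%. The rank of the exonic region by MACS tags thus went with its width, and less so by tagcount. The 3 CCND2 regions with most tags (654, 254 and 170) were also the 3 widest, and the other 4 had 34 to 102.

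Without the region at -49045 bp, the 6 CCND2 regions covered 10763 of 26238 bp (41.0%) and held 1285 MACS tags, 50.9% of them in the start region. One more region lay inside this stretch (4385905 to 4386695, 90 MACS tags, tagcount 70). The authors named it for RP11-264F23.3, and it was 907 bp from the next CCND2 region.

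CCND1 differed from CCND2 in cluster: 2 of its 4 regions were in cluster II and 2 in cluster III. At least 4 regions were found for 2.82% of named genes. The start of transcript ENST00000227507, bounded between 69455644 and 69455964 on chromosome 11, lay inside a cluster II promoter-list region (69455285 to 69456121, 837 bp). Its tagcount was 98 (80 to 119), more than 68.5% of cluster II, whose median was 69, but per kb of width more than only 33.2%. Each cluster II region carries a second interval, here 69455518 to 69456041, which lay wholly inside the first and was 524 bp wide.

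Upstream of CCND1, 2 cluster III regions in upstream positions were in the promoter list, where 1.18% of regions had that position. The one at -1721 bp (69453786 to 69454243) had 38 MACS tags (27 to 52) and a tagcount of 25. The one at -4378 bp (69451175 to 69451705) had 52 MACS tags (39 to 68) and a tagcount of 29. Their intervals overlap, and both lie near or under the cluster III median of 50. The fourth region was an intergenic enhancer-list region of cluster II at -10833 bp (69444811 to 69445183), with a tagcount of 40 (29 to 54), more than 9.49% of its cluster. By tagcount the start region was above each of the other 3 CCND1 regions, and its interval did not overlap theirs. Per kb of width its tagcount of 117 was close to that of the region at -10833 bp (107), and both cluster III regions had 54.6. NEAT1, a nuclear long non-coding RNA gene, was the only other gene with the same numbers of regions in clusters II and III and in the promoter and enhancer lists. No other gene shared the numbers of CCND2 or CDKN2C.

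CDKN1B had 2 regions, both in cluster III and in the promoter list, a pattern that 116 other genes shared, and 18.1% of named genes had at least 2 regions. The first (chromosome 12, 12869940 to 12870513, 574 bp) was at 139 bp from the start of ENST00000228872, whose GRCh38.p14 promoter is printed above. It had 71 MACS tags (55 to 90) and a tagcount of 45 (33 to 60). The second (12870764 to 12871791, 1028 bp) was at 114 bp from the start of ENST00000442489, a protein-coding transcript in GENCODE 44, and had 97 MACS tags (79 to 118) and a tagcount of 80 (63 to 100). Only 250 bp separated them. In cluster III they exceeded 75.3% and 89.0% of regions by MACS tags, and 86.6% and 97.2% by tagcount. The 2 regions did not overlap in their tagcount intervals, while their MACS tag intervals did. Per kb of width their tagcounts were 78.4 and 77.8. By MACS tags per kb their order turned, at 83.9% of cluster III for the first and 44.1% for the second.

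CDKN2C was the 1 gene of the 4 with a region in each cluster, and all 3 were in the enhancer list. At least 3 regions were found for 6.51% of named genes. The start of ENST00000371761 was bounded between 51435337 and 51435807 on chromosome 1, so the nearest region began 297 to 767 bp past it. That region (51436104 to 51436815, cluster II) had a tagcount of 61 (47 to 78), more than 41.2% of its cluster. Its second interval, 51436445 to 51436966, shared 371 bp with the first and reached farther downstream. It was classed as a start window although it was in the enhancer list.

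The second CDKN2C region (51437079 to 51437673, intron, 1827 bp from the start) was in cluster I, with 52 MACS tags (39 to 68) in the untreated library and a tagcount of 55 (41 to 72). Its MACS tags exceeded those of 79.7% of the 202 cluster I regions. The third (51439417 to 51440040, exon, 4233 bp from the start) was in cluster III, with 42 MACS tags (30 to 57) and a tagcount of 31 (21 to 44), above 32.2% of cluster III by MACS tags. Only 263 bp separated the cluster II and cluster I regions, and 1743 bp the cluster I and cluster III regions. The tagcount intervals of the first 2 overlapped. The interval of the third overlapped that of the second and lay below that of the first. Per kb of width all 3 ranked lower. The first was above 1.53% of cluster II by tagcount. By MACS tags the second was above 30.2% of cluster I and the third above 0.322% of cluster III. By tagcount per kb these 2 were above 22.8% and 54.1% of their clusters.

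Over all 16 regions, 7 were in the promoter list (43.8%, exact Clopper-Pearson 95% interval 19.8 to 70.1), beside 48% of all regions. Cluster III held 12 (75.0%, 47.6 to 92.7), beside 73.9% of all regions. Of these 12, 6 were in the promoter list, beside 41.5% of cluster III. These shares lay near those of all regions. Regions of 1 gene are neighbours and not independent. By MACS tags in clusters I and III and tagcount in cluster II, the median member exceeded 71.9% of its cluster. Of the 12 cluster III members, 9 lay on the short arm of chromosome 12. Median MACS tags of cluster III were 68 on that arm, beside 49 elsewhere.

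Within cluster III, MACS tags of the ATRA library were compared with tagcount in the same region. The ratio of the 12 regions ran from 1.21 to 2.09, with a median of 1.57, beside a median of 2.06 over cluster III. Exact conditional intervals were 1.38 to 1.77 at the CCND2 start region (ratio 1.56) and 1.27 to 1.90 at its exonic region (1.55). At the CCND2 region at -5581 bp the ratio was 1.21 (0.959 to 1.52). The CDKN1B regions had 1.58 (1.07 to 2.35) and 1.21 (0.893 to 1.65). The CCND1 regions had 1.79 (1.12 to 2.93) at -4378 bp and 1.52 (0.894 to 2.63) at -1721 bp, and the CDKN2C region 1.35 (0.832 to 2.23). The CCND2 regions at -8758 and -49045 bp had 1.79 and 1.68, and those at the ENST00000536795 start and in the intron after it 2 (1.42 to 2.86) and 2.09 (1.37 to 3.24). The intervals of the weaker regions overlapped one another, so no order among them is given.

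**Figure D2:**
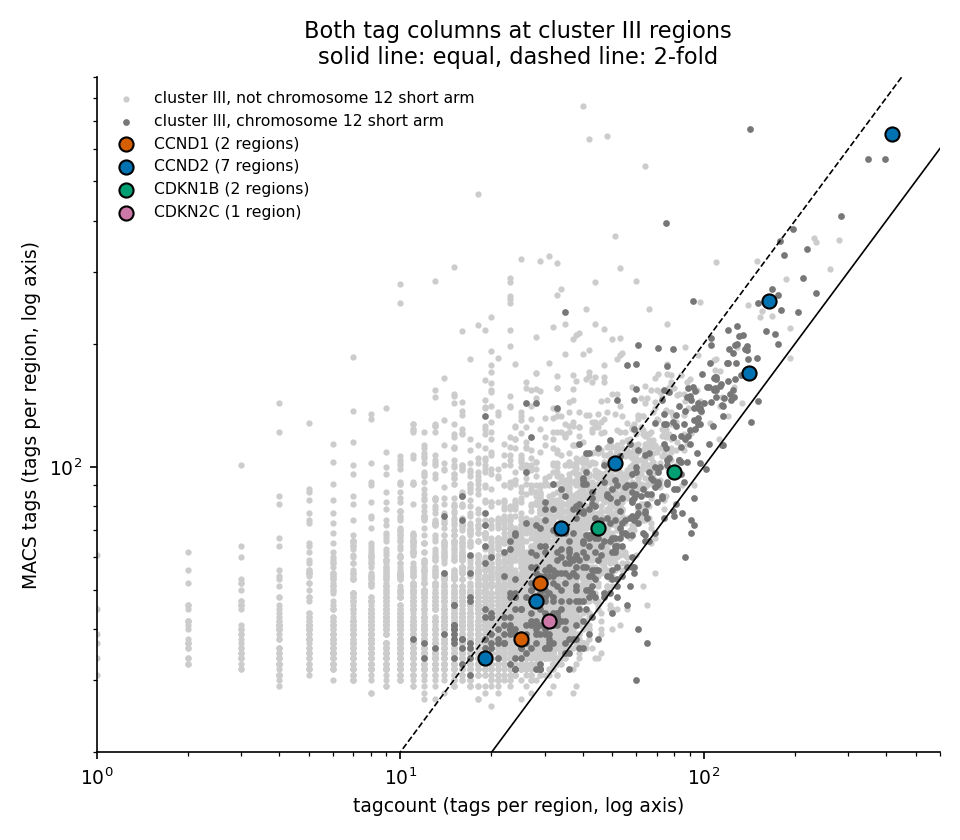
Each point is a cluster III region, with tagcount on the horizontal axis and MACS tags on the vertical axis, both in tags per region on log axes. Coloured points are the 12 regions named for the 4 genes, dark grey points the other regions on the short arm of chromosome 12 and light grey points all others, without 1 region whose tagcount is 0. The CCND2 start region, at 418 and 654, is the coloured point farthest to the upper right, and most coloured points lie between the solid line (equal) and the dashed line (2-fold).

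MACS tags were at least 2-fold the tagcount at 2 of the 12 regions (16.7%, 2.09 to 48.4), beside 53.5% of cluster III. These were the CCND2 regions with 102 against 51 tags, exactly at the threshold, and 71 against 34. In the promoter list the count was 0 of 6, beside 35.2% of cluster III promoter-list regions. In the enhancer list it was 2 of 6, beside 66.5%. Depth is unknown and may differ between libraries, and the library behind tagcount is not named. A ratio of 2 is therefore not read as a change of that size, and the counts are read only against these shares.

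The share depended on the chromosome arm, and 9 of the 12 regions, those of CCND2 and CDKN1B, lay on the short arm of chromosome 12. On that arm 20.8% of 563 cluster III regions reached 2-fold, beside 56.6% of 5956 elsewhere, and the median ratio was 1.51 beside 2.13. By list, the share on the arm was 5.77% in the promoter list and 29.6% in the enhancer list, and elsewhere 37.6% and 70.3%. The members on the arm reached it at 2 of 9 regions, near the share of the arm, and those elsewhere at 0 of 3. Tags were also higher on the arm, with median MACS tags of 68 beside 49, median tagcount of 43 beside 23 and median width of 694 beside 506 bp. The part of the arm in the values of CCND2 and CDKN1B was not tested.

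Ranked only among the 563 cluster III regions of the arm, the CCND2 start region was number 2 by MACS tags and the exonic one number 15. The region at -5581 bp exceeded 91.3% of them. The CDKN1B regions exceeded 53.3% and 71.2%, lower than their ranks over the whole cluster. Weaker CCND2 regions ranked lower on the arm too, at 73.4% for the one at the ENST00000536795 start, 53.3% for the intronic one after it, 24.2% at -49045 bp and 2.13% at -8758 bp. The CCND2 start region stood near the top on either scale.

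**Figure D3:**
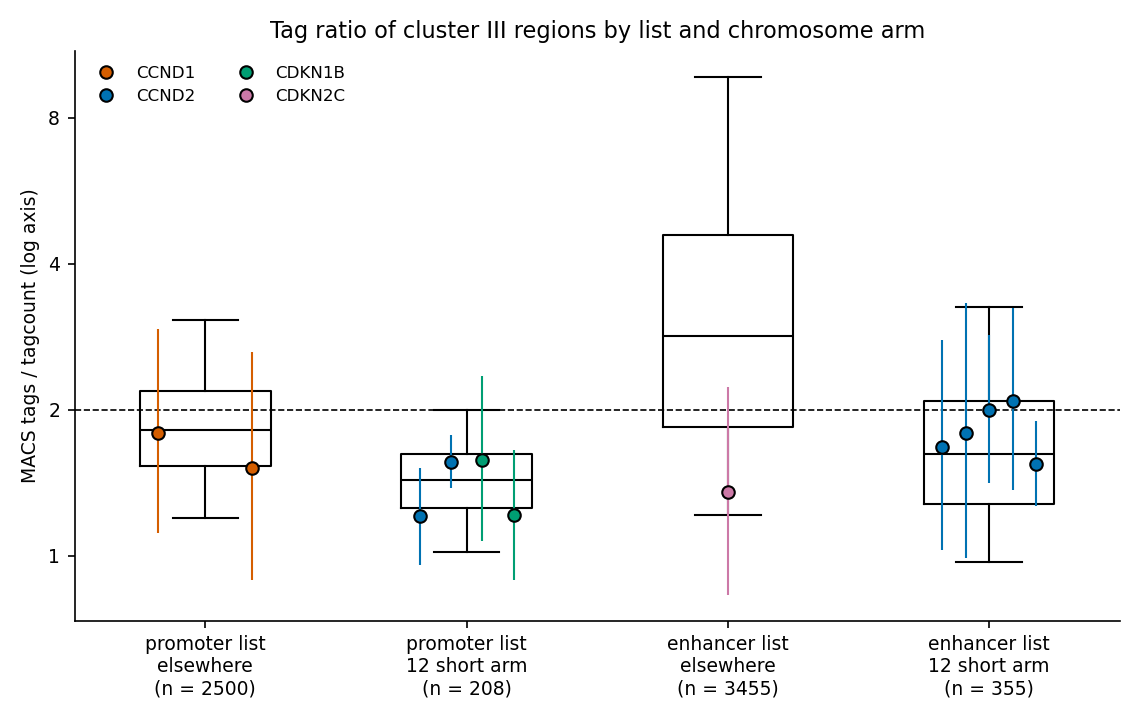
The vertical axis is the ratio of MACS tags to tagcount at cluster III regions on a log axis. Boxes show the quartiles and median and whiskers the 5th and 95th percentiles of all regions, by list and by position on the short arm of chromosome 12 or elsewhere. Points are the 12 regions of the 4 genes with exact 95% counting intervals, and the dashed line marks 2-fold. The box of promoter-list regions on the short arm lies lowest, and 2 CCND2 points reach the dashed line.

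Other regions lay close to each gene. Within 100 kb of the CCND2 regions there were 9 regions with other names, all in cluster III. They included 6 upstream named for RP11-320N7.1 (38 to 254 MACS tags) and 2 at starts of C12orf5, a regulator of glycolysis also known as TIGAR (74 and 80 MACS tags). Near CDKN1B there were 5. The one with most MACS tags was a 2688 bp promoter-list region of APOLD1, a gene first described in blood vessel cells. It had 381 MACS tags and a tagcount of 197, rank 12 in cluster III, and began 4598 bp past the CDKN1B regions. GPR19, an orphan receptor gene, had 154 and 77 MACS tags at its starts on the other side. A cluster II start region of DDX47, 94108 bp away, carried no MACS tag value. Its tagcount of 253 was above that of the APOLD1 region. CCND1 had 1 other region within 100 kb (ORAOV1, 57 MACS tags), and CDKN2C had 1 (FAF1, 65 MACS tags, 9892 bp away).

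Counting regions of any name, those of the same gene included, the CCND2 start region had 9 others within 100 kb of its centre. The CCND2 region at -49045 bp had 15, each CDKN1B region 6, each CCND1 region 4 and each CDKN2C region 3. The median was 2 over all regions and 5 over the 640 regions of the short arm of chromosome 12. The CCND2 start had more neighbours than 93.8% of all regions and 71.1% of those on the arm. The CDKN1B regions were at 84.9% and 52.7% on the same scales.

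Of a list of 40 genes of the cyclin, CDK, RB and E2F machinery, 14 (35.0%) were named at a region, beside 23.2% of 20056 RefSeq protein-coding genes matched by symbol or synonym. The 4 genes above are part of this count, and without them it was 10 of 36 (27.8%). Of these 10 other genes, 8 had promoter-list regions (80.0%, beside 57.7% of all named genes) and 3 had enhancer-list regions (30.0%, beside 47.7%). Cluster II held regions of 4 (40.0%, beside 29.7%) and cluster III of 7 (70.0%, beside 73.2%). No list gene of the later cyclins (0 of 6, A, B and E types) or of CDK1 and CDK2 was named.

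Among the partners of cyclin D, both kinase genes had regions. CDK4 had 1 at its start (chromosome 12, long arm, 58145731 to 58146470) with 86 MACS tags and a tagcount of 26. CDK6 had 3 in cluster III. Its intronic region at -29515 bp (chromosome 7, 92383832 to 92385030) had 272 MACS tags and a tagcount of 34, a ratio of 8. The other intronic region had 55 and 10, and the one at the CDK6 start 63 and 39, a ratio of 1.62. The highest ratio at a region of CCND1, CCND2, CDKN1B or CDKN2C was 2.09, at a CCND2 region on the short arm of chromosome 12. Median cluster III ratios were 1.51 on that arm and 2.13 elsewhere, so the CDK6 ratios on chromosome 7 are not directly comparable.

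**Figure D4:**
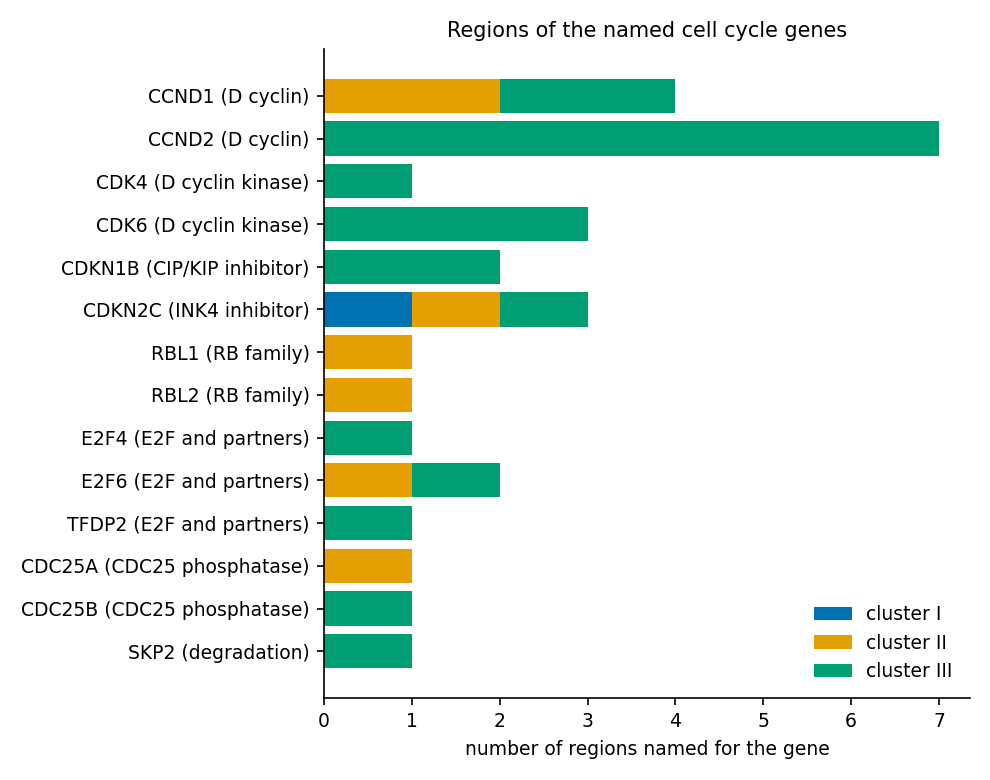
Bars give the number of regions named for each of the 14 cell cycle genes of the list that have any, with colours for the cluster and the role of each gene in brackets. CCND2 has the longest bar (7 regions, all cluster III), CDKN2C alone has a cluster I part, and RBL1, RBL2 and CDC25A have cluster II regions only.

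The RB family members RBL1 (p107) and RBL2 (p130) had start regions in cluster II with tagcounts of 247 and 91, and RB1 had none. Of the E2F group, E2F6, a repressive member, had a cluster II start region (tagcount 41) and a cluster III region at -16636 bp (42 MACS tags, tagcount 20). E2F4 had 40 MACS tags and a tagcount of 28 at its start, and TFDP2, which encodes an E2F dimer partner, 42 and 11 in an intron. The phosphatase genes CDC25A and CDC25B, whose products activate CDKs, had tagcounts of 46 at a cluster II start and 35 at a cluster III upstream region (47 MACS tags). SKP2, the ubiquitin ligase subunit that targets p27, had 73 MACS tags and a tagcount of 39 at its start. None of the 9 cluster III regions of these 10 genes lay on the short arm of chromosome 12. MACS tags were at least 2-fold tagcount at 5 of the 9, near the 56.6% of cluster III regions outside that arm. Other inhibitor genes of the list, CDKN1A, CDKN1C, CDKN2A, CDKN2B and CDKN2D, and the cyclin gene CCND3 were named at no region.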

How the data were processed

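H3R2me2a region lists of 2 control NT2/D1 libraries, without and with ATRA, were used. The submitters' processing notes name bcl2fastq, Bowtie2, MACS 1.4 and deepTools and build hg19, with no role or order. Tag counts are whole numbers that the authors deposited with no scaling, and distances, widths and summits are in base pairs, per the file headers. Per the file headers, position classes used 1250 bp for starts and 5000 bp for upstream positions. The sources used here do not say how clusters and lists were set or which library tagcount came from.

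The 5 lists were joined on chromosome, start and stop, which matched for all regions. Ranks give the percentage of a cluster's regions with a lower value. Intervals are exact 95% Poisson, Clopper-Pearson or conditional binomial intervals. Only the conditional binomial intervals of ratios were tested on simulated data. The short arm of chromosome 12 was taken up to 36 Mb. Python 3.11.15, pandas 2.3.3 and scipy 1.17.1 were used. No p-values were computed. Genes, lists and the rule for named genes (every region of the 4 genes, every listed cell cycle gene with a region, neighbours within 100 kb) were chosen with earlier results of these data known. Alternatives covered the distance limit, weak regions, joining of close regions, the fold and its scaling.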

Additional observations from a re-analysis of the deposited data

How the results depend on the processing

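No paired analysis was possible because there was 1 library per condition. The 16 regions fell to 5 when they had to lie within 1000 bp of the named start (1 each for CCND1, CCND2 and CDKN2C, 2 for CDKN1B) and to 10 when they needed at least their cluster's median tags. They were 11 within 5000 bp and 13 after joining gaps of at most 1000 bp. The CCND2 region kept within 1000 bp was the one at the ENST00000536795 start. The 5216 bp CCND2 region was lost at that limit, since the authors' distance for it was -1016 bp. It spanned the bounds on its start all the same. The count of regions at least 2-fold moved with every alternative: 9 of 12 at a fold of 1.5 (beside 80.3% of cluster III), 0 at 4 (17.6%), 1 after adding 1 to both columns (51.6%), 0 after dividing each column by its cluster III median (16.1%) and 0 of 3 without the short arm of chromosome 12 (56.6%). Under each of these the share of the members was below that of cluster III, on counts of 0 to 9. At a fold of 1.5 the shares were close (75.0% beside 80.3%). Only the last setting allowed for the short arm of chromosome 12, where 9 of the 12 regions lay. At 2-fold the members there were at 2 of 9, beside 20.8% of cluster III regions on that arm. Named cell cycle genes of the list of 40 fell from 14 to 9 at or above the median tags (beside 13% of protein-coding genes). Within 1000 bp they were 12 (beside 18.2%). These counts include the 4 genes above, and counts without them were not made at these settings. The median tag rank of 71.9% was 69.1% within the same list and 54.6% per kb of width, where 9 of 16 regions left their counting interval. The cause of these shifts was not tested, beyond the fewer regions that the stricter settings keep. Unknown depth limits every comparison of the tag columns, and tags under about 50 often carry intervals too wide to order neighbouring regions.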
